A study of Homo sapiens with 16 samples.

Results

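The genes described here make, store, recapture and package catecholamines: TH, DDC, DBH, PNMT, SLC18A1, SLC18A2, SLC6A2, CHGA and CHGB. They were listed by name for their function in noradrenergic cells, and are 9 of the 20136 protein-coding genes placed on hg19 by the GENCODE annotation. Histone H3 monomethylated at lysine 4 (H3K4me1) and trimethylated at lysine 27 (H3K27me3) were mapped by CUT&Tag in BE2C cells, an established human neuroblastoma line with amplified MYCN. Each mark was mapped in 4 groups of 2 libraries, which gave 8 groups and 16 libraries. In the knockdown experiment, BE2C cells carried either siKDM6B33, 1 siRNA against the histone demethylase KDM6B, or the control siRNA siCtrl, and were taken at 72 h. In the compound experiment they received 2.5 µM GSK-J4 (GSKJ4), an inhibitor of KDM6 demethylases, or 0.1% DMSO, also for 72 h. All groups share the same line, so nothing here speaks for other neuroblastoma cells.

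Noradrenaline is made in a chain of enzymatic steps. Tyrosine hydroxylase (TH) turns tyrosine into L-DOPA and sets the pace, DOPA decarboxylase (DDC) makes dopamine, dopamine β-hydroxylase (DBH) makes noradrenaline inside the vesicle, and PNMT methylates noradrenaline to adrenaline, mainly in adrenal chromaffin cells. The vesicular transporters encoded by SLC18A1 and SLC18A2 fill the granules, the transporter encoded by SLC6A2 takes released noradrenaline back up, and the chromogranins CHGA and CHGB are acidic proteins of the granule core. Neuroblastoma arises from the sympathetic lineage, and secreted catecholamine products are used to detect it. H3K4me1 marks enhancers and the flanks of active promoters, and H3K27me3 is laid down by Polycomb complexes over silenced genes.

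The bases in front of the starts are shown because several of these promoters share a site and because the marks at the start of DBH differed between groups. The 250 bases before the canonical start were read from GRCh37 and searched on both strands for TGACGTCA, the cAMP response element. The E-box motifs searched were CACGTG, which MYC proteins bind, and another of the form CAGCTG. A homeodomain core, TAATTA, and the GATA factor site in the form AGATAA were also searched, and no motif contains another. TGACGTCA was found before 3 of the 8 starts searched, those of TH, SLC18A2 and CHGA, and in 2.39% of the 20132 upstream windows of coding genes. It began 45 bases before the start of TH, 48 before SLC18A2 and 54 before CHGA. CAGCTG was found before PNMT, AGATAA before SLC18A1, and none of the motifs before DDC, DBH or SLC6A2. Only exact matches were counted, so near matches were missed: the DBH window holds tgacgtcc, which differs from TGACGTCA in its last base. Their shares of all upstream windows were 13.2% for CAGCTG, 6.62% for AGATAA, 7.87% for CACGTG and 2.91% for TAATTA. The sequences below run 5′ to 3′ in the direction of transcription with the site in capitals. The window of DBH, which holds no exact match, is shown because an H3K27me3 island appeared over it in knockdown cells. This gain was 1 gene of 9, where 11.1% of coding genes were higher, and no gene was higher with the lists trimmed to equal covered length. No H3K27me3 narrow peak lay within 1 kb of the DBH start in either siKDM6B33 library, and both DMSO libraries had an H3K27me3 island there. The last bases of the SLC18A2 window lie in an exon of a non-canonical SLC18A2 transcript and in the antisense gene SLC18A2-AS1.
TH upstream, chr11:2193046-2193295 (minus strand): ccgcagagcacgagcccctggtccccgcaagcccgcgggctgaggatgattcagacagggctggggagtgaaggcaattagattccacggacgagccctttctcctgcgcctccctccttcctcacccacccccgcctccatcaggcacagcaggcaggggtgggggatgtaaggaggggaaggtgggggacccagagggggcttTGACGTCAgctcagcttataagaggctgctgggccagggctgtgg
SLC18A2 upstream, chr10:119000375-119000624 (plus strand): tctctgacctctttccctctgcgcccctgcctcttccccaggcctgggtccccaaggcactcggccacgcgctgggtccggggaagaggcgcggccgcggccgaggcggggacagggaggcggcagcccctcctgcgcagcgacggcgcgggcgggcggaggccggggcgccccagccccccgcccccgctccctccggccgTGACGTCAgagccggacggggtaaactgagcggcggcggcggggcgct
CHGA upstream, chr14:93389245-93389494 (plus strand): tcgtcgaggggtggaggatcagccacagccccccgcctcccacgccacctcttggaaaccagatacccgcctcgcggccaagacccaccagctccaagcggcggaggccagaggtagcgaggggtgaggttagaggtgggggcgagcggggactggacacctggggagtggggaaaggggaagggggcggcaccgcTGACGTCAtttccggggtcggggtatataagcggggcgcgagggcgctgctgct
DBH upstream, chr9:136501235-136501484 (plus strand): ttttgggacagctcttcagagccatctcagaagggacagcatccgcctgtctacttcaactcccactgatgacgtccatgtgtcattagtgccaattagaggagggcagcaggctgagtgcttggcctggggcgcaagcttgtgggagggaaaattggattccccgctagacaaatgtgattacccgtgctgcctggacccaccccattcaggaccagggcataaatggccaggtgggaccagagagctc

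For each gene, the position was taken where the largest number of libraries had a narrow peak summit within 50 bp, so that the libraries share it by choice and it serves here as a description. All 8 H3K4me1 libraries and 5 of the H3K27me3 libraries had a TH summit 5473 bp downstream of the start, within 6 bp of each other, in an exon of a non-canonical TH transcript. The DDC summit, 57028 bp downstream in an intron, was found in 12 libraries. That of SLC6A2 lay 3694 bp upstream of the start in 12 libraries, and that of CHGA 5805 bp upstream in 11 libraries, both outside annotated genes. DBH had its summit in the last exon of the canonical transcript, 22173 bp downstream of the start, in 13 libraries. The other positions were 683 bp upstream for PNMT (5 libraries), 232 bp upstream for SLC18A1 (11 libraries), 8020 bp downstream for SLC18A2 (8 libraries) and 322 bp upstream for CHGB (10 libraries). The 201 bases around 4 of these summits are given below, with the stretch that holds every library's summit in capitals. CAGCTG occurs in the SLC6A2 window, as in 16.6% of 131289 summit windows of the first siCtrl H3K4me1 library, and TGACGTCA occurs in none of the 8 summit windows searched.
TH summit, chr11:2187472-2187672 (minus strand): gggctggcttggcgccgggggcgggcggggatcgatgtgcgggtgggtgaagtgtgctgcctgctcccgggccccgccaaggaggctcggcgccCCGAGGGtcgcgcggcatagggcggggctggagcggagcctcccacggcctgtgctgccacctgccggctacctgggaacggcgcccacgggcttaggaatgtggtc
DDC summit, chr7:50575974-50576174 (minus strand): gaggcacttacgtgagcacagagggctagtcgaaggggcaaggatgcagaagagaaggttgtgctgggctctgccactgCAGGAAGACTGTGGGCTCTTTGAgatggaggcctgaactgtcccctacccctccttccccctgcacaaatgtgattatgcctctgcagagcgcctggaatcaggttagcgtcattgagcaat
SLC6A2 summit, chr16:55686106-55686306 (plus strand): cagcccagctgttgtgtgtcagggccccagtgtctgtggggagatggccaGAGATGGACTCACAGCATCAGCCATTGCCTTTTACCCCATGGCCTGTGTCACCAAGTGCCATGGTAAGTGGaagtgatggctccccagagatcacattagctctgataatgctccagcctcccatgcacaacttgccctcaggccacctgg
CHGA summit, chr14:93383590-93383790 (plus strand): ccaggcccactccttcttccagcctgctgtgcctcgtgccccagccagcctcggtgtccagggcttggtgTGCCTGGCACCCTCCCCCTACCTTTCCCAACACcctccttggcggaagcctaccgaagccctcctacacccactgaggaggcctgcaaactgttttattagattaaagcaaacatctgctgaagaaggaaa

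The genes lie at chr11:2185159-2193045 (TH, minus strand), chr7:50526134-50633102 (DDC, minus), chr9:136501485-136524451 (DBH, plus), chr17:37824234-37826728 (PNMT, plus), chr8:20002366-20040717 (SLC18A1, minus), chr10:119000604-119038941 (SLC18A2, plus), chr16:55689900-55741557 (SLC6A2, plus), chr14:93389495-93401630 (CHGA, plus) and chr20:5892156-5905999 (CHGB, plus). A gene's window was its body with 10 kb on each side, 22.5 kb long for PNMT and 127 kb for DDC. Parts of other coding genes fall in 6 of the windows: IGF2, INS and INS-IGF2 in that of TH, PGAP3, STARD3 and TCAP in that of PNMT, SARDH beside DBH, FIGNL1 beside DDC, PDZD8 beside SLC18A2 and ITPK1 beside CHGA. Marks in those stretches cannot be assigned to 1 gene.

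The data are lists of regions, called by the authors separately in each library, and not reads. A library held 7175 to 24917 broad regions (islands), which covered 53.7 to 115 Mb, and 29752 to 131341 narrow peaks. The genome background, the mean number of tags over a base that the peak caller assumed, was 0.0849 to 0.107 for H3K4me1 in the knockdown experiment and 0.0483 to 0.0569 in the compound experiment. For H3K27me3 it was 0.0395 to 0.0539 and 0.0298 to 0.0507. Median summits of 3 to 9 tags set the precision of the narrow peaks. Treated libraries of the knockdown were deeper than their controls, and the island lists of siKDM6B33 were longer. GSKJ4 H3K27me3 replicate 1 stood apart, with 16676 islands of median 3000 bp against 8006 of median 7400 bp in its partner. The compound experiment's H3K27me3 lists lay largely on H3K4me1: 50.1% to 66.9% of their length fell inside the H3K4me1 islands of the same-numbered library, against 8.92% to 11.4% in the knockdown experiment. H3K4me1 islands in siKDM6B33 cells reached 57.5% and 57.6% of all coding starts (within 1 kb), against 24.3% and 24.7% in siCtrl. Whether antibody carry-over or exchanged labels have a part in the compound H3K27me3 lists or the siKDM6B33 H3K4me1 lists was not tested, and the names of marks stand below for what the labels call them. How far these differences between libraries carry into single genes was not tested. Region lists do not measure KDM6B RNA or protein, so the knockdown itself could not be checked.

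In siCtrl cells, H3K4me1 islands covered most of the TH, DBH, SLC6A2, PNMT and CHGA windows. The order of the group means was CHGA 99.2%, TH 95.9%, DBH 82.7%, SLC6A2 62.3%, PNMT 57.3%, DDC 45.4%, SLC18A1 32.0%, SLC18A2 23.5% and CHGB 4.43%. Values of CHGA and TH overlapped, as did those of SLC6A2 and PNMT, and every other pair of neighbours was separated in both libraries. The median of the 9 genes was 57.3%, beside 0% over all coding genes. TH exceeded 99.8% and 99.9% of coding genes, CHGA 99.9% in both libraries, and SLC18A2 87.3% and 86.3%. CHGB, whose window held 1 short island over its start, exceeded 65.5% and 67.4%. The label of the line was set beside its noradrenergic transcription factors, whose median coverage in siCtrl was 58.1%. Mesenchymal and Schwann cell markers had a median of 0%, among which SNAI2 had 29.0% and 31.5% and SOX10 6.61% and 4.98%. The lists were not cleanly separated, as INSM1 among the factors had 22.8% and 16.6%, below SNAI2. Coverage by H3K4me1 is not expression, so these values cannot settle the label. In bulk chromatin, a mark present in fewer cells and a weaker mark in each cell cannot be told apart.

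After KDM6B knockdown, the islands over the synthesis enzymes were shorter. Coverage of TH was 92.7% and 99.1% in the 2 siCtrl libraries and 54.7% and 68.9% in the 2 siKDM6B33 libraries, a difference of -34.2 percentage points. All of this coverage difference lay in the flanks, and the difference over the TH gene body alone was 0 points. Islands spanned that whole body in every library of both groups, so coverage could not differ there. The highest summit, which lay inside the body, was lower in siKDM6B33, as given below. DDC had 44.6% and 46.2% in siCtrl against 25.5% and 23.3% in siKDM6B33. Coverage of DBH was 79.4% and 85.9% against 54.5% and 61.0%. All siKDM6B33 values of these 3 genes lay below both controls, and the gap between groups was wider than the gap between replicates. PNMT had 58.7% and 56.0% in siCtrl and 48.9% and 35.6% in siKDM6B33, and its direction depended on the window: with a 5-kb flank the difference turned to 6.69 points and over the gene body alone to 14.6 points.

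Both vesicular transporters and the noradrenaline transporter had less H3K4me1 as well. SLC18A2, which encodes the vesicular transporter of neurons, had 24.7% and 22.3% in siCtrl and 3.43% and 7.20% in siKDM6B33, the largest change of the 9 genes relative to its control. SLC18A1, which encodes the form found in chromaffin cells, had 30.5% and 33.6% against 25.7% and 25.0%. Coverage of SLC6A2 was 68.1% and 56.5% in siCtrl and 29.0% and 36.7% in siKDM6B33. None of the 3 genes had a treated value inside its control range.

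The chromogranins differed from each other. CHGA stayed nearly covered, with 100% and 98.4% in siCtrl and 96.6% and 95.9% in siKDM6B33, a difference of -2.97 points. CHGB was the single gene with more island length, 4.14% and 4.73% in siCtrl against 8.86% and 5.32% in siKDM6B33. Both siKDM6B33 values of CHGB exceeded both controls, although by less than the gap between the siKDM6B33 libraries.

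**Figure D1:**
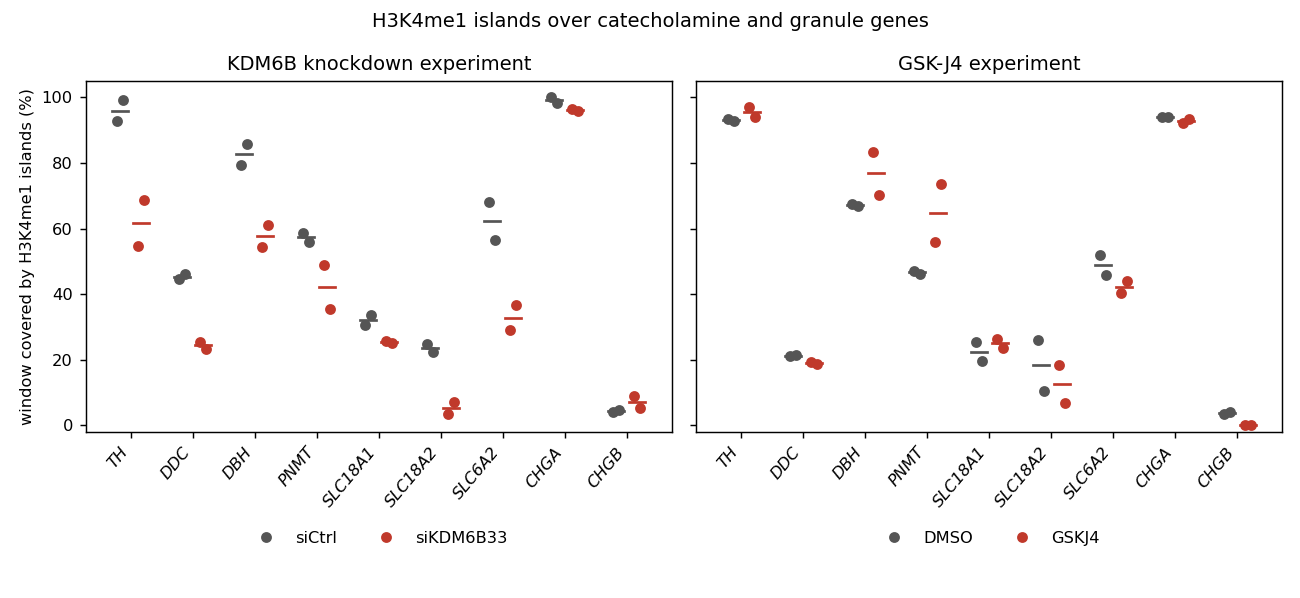
Percent of each gene's window covered by H3K4me1 islands, for the knockdown (left) and the compound (right) experiment. Points are single libraries and bars are means of 2; siKDM6B33 points lie below both siCtrl points for 8 genes, whereas GSKJ4 points lie above both DMSO points for TH, DBH and PNMT only.

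In counts, both siKDM6B33 libraries were below both siCtrl libraries for 8 of the 9 genes, and above them for 1. Over all coding genes the groups stood apart this way in 10.2% (lower) and 48% (higher). Genes with little H3K4me1 cannot be much lower, so the 3097 genes with a siCtrl mean of at least 20% give a closer background, and 32.2% of these were lower and 40% higher. It is not a matched one: its siCtrl median was 36.3%, against 57.3% for the 9 genes, and CHGB (4.43%) falls below its floor. Genes near full coverage in siCtrl, such as TH and CHGA, can hardly go higher. The median difference was -18.2 points for the 9 genes, 1.72 points for those 3097 genes and 1.21 points for all genes. An exact two-sided permutation test of 2 libraries against 2 cannot give p below 0.333, which was the value for each of the 9 genes, so no single gene passes 0.05. Over the gene bodies alone 5 of the 9 genes were lower (DDC, DBH, SLC18A1, SLC18A2 and SLC6A2). TH and CHGA had a difference of 0 there, since islands spanned their whole bodies in every library of both groups. With the lists trimmed to equal covered length 8 genes were lower.

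Fewer narrow peaks were called over most of these genes too. TH held 11 and 15 H3K4me1 narrow peaks in siCtrl and 3 and 6 in siKDM6B33. DBH had 29 and 26 against 15 and 17, and CHGA had 32 and 31 against 22 and 19. In all, 6 of the 9 genes had fewer peaks in both siKDM6B33 libraries (TH, DBH, PNMT, SLC18A1, SLC6A2 and CHGA), where 11.6% of coding genes did. DDC was opposite, with 32 and 31 peaks in siCtrl and 34 and 40 in siKDM6B33, as for 37.5% of coding genes.

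Peak height was compared as the tags at the highest summit of a window divided by the genome background of the library, since deeper libraries have taller peaks. The TH summit stood at 599 and 613 times background in siCtrl and at 224 and 285 times in siKDM6B33. DDC had 987 and 1131 against 524 and 495. DBH had 743 and 754 against 327 and 362, and CHGA 943 and 1072 against 411 and 371. Values of these 4 genes were lower in both siKDM6B33 libraries, and so were those of SLC18A1 and SLC18A2, which made 6 of 9. SLC6A2 was different: its highest summit was 610 and 648 in siCtrl and 617 and 618 in siKDM6B33, within the control range, while its island coverage was much lower. Summits of PNMT and CHGB overlapped between groups. The background for a lower summit was 13.7% of all coding genes and 46.1% of the 3665 genes whose siCtrl summits averaged at least 200.

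**Figure D2:**
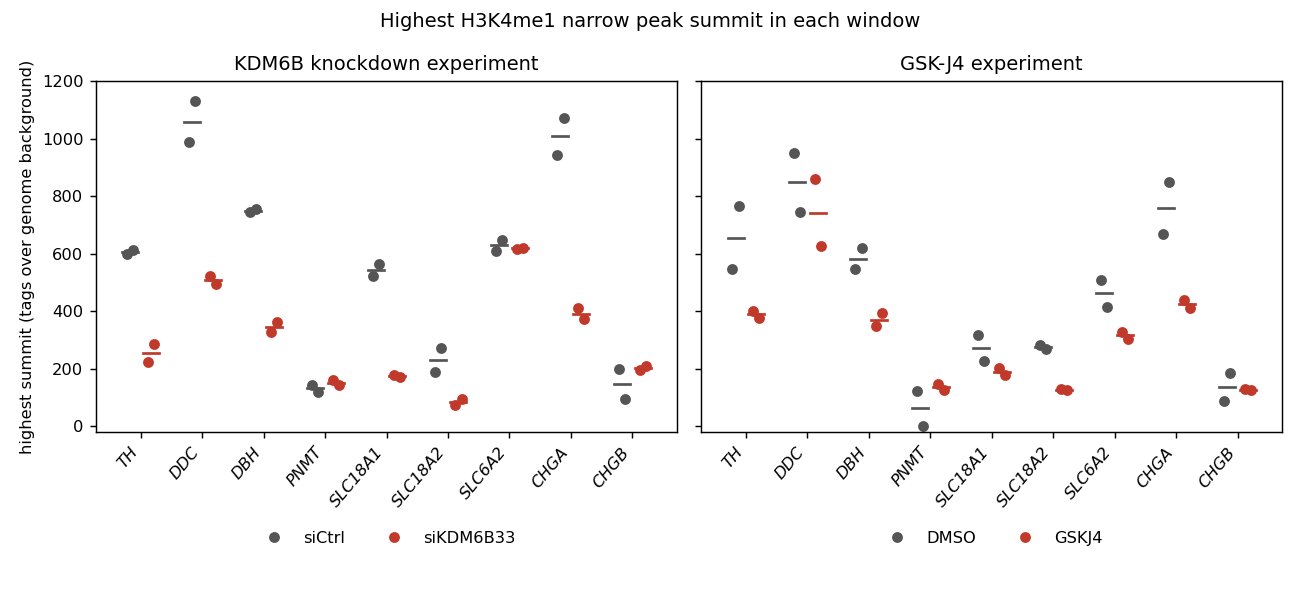
Highest H3K4me1 narrow peak summit in each window, in tags over the genome background of the library, for the knockdown (left) and compound (right) experiments. Points are libraries and bars are means of 2, with 0 where no narrow peak was called; TH, DDC, DBH, SLC18A1, SLC18A2 and CHGA are lower in siKDM6B33, while SLC6A2 stays near 618.

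The H3K4me1 missing from siKDM6B33 cells lay beside or far from the starts, with DDC as the exception. Stretches of at least 1 kb covered in both siCtrl libraries and in neither siKDM6B33 library numbered 21, with 61.0 kb in all, whereas 2 stretches of 2.60 kb in all showed the reverse and 21 stretches (130 kb) were covered in all 4 libraries. TH kept 13 kb in 1 stretch around its gene body, and its 3 missing stretches lay 13.6 to 15.8 kb downstream, 2.16 to 3.36 kb upstream and 8.76 to 10 kb upstream of the start. In DDC, 5 stretches with 22.4 kb were missing, the longest of them 8.20 kb in an interval 21.7 to 29.9 kb past the start. DDC was also the gene that lacked its start: a stretch from 3.10 kb before to 1.1 kb after it was covered in both siCtrl libraries and in neither siKDM6B33 library. SLC18A2 lacked 9.80 kb of its intragenic islands in 3 stretches and kept 2.00 kb. The longest SLC6A2 stretch, 6.40 kb, lay 47.9 to 54.3 kb past its start, around the 3′ end of the gene.

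**Figure D3:**
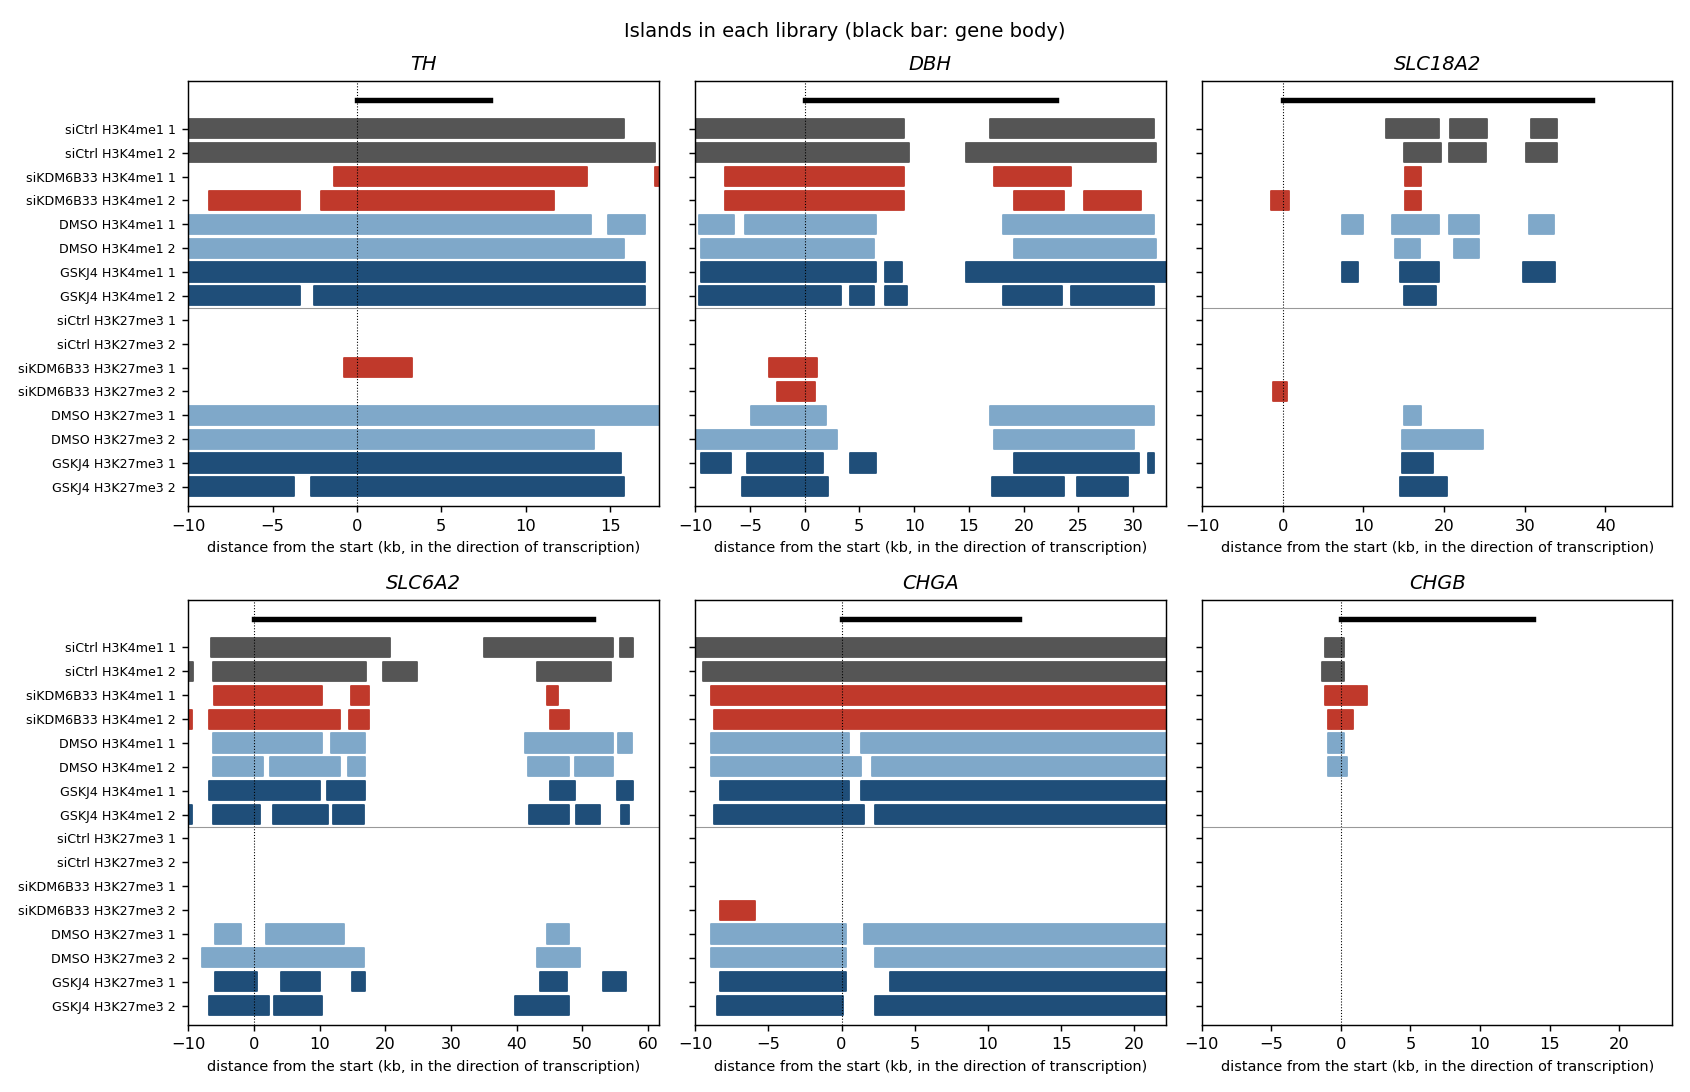
Islands in each of the 16 libraries around 6 of the genes, drawn by distance from the start in kb, with H3K4me1 libraries in the upper and H3K27me3 libraries in the lower rows. The TH and DBH domains are narrower in siKDM6B33 H3K4me1, CHGB has no island in GSKJ4, and the H3K27me3 islands of DMSO and GSKJ4 lie over the H3K4me1 islands while siCtrl has none at these genes.

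With GSK-J4, H3K4me1 coverage of the 9 genes went both ways. TH had 93.4% and 92.7% coverage in DMSO and 97.0% and 94.1% in GSKJ4. This difference of 2.51 points turned to -2.24 points with a 5-kb flank. It was 0 over the gene body, which islands spanned entirely in every library of both groups. DBH had 67.5% and 67.0% in DMSO against 83.4% and 70.3% in GSKJ4, and PNMT 47.1% and 46.2% against 56.0% and 73.6%. All 3 genes were higher in both GSKJ4 libraries, but the replicates of GSKJ4 lay 13.2 points apart for DBH and 17.6 points apart for PNMT. Coverage was lower in both GSKJ4 libraries for DDC (21.1% and 21.4% against 19.4% and 18.7%) and for SLC6A2 (51.9% and 45.8% against 40.5% and 44%). CHGA went from 94.1% in both DMSO libraries to 92.2% and 93.4%. The CHGB island over the start, 3.55% and 4.14% of the window in DMSO, was not called in either GSKJ4 library, and the stretch from 0.955 kb before to 0.244 kb after the start was without an island. Narrow peaks were still called there: the CHGB summit 322 bp upstream stood at 87.9 and 186 times background in DMSO and at 128 and 125 times in GSKJ4, inside the DMSO range. Values of SLC18A1 (25.4% and 19.5% against 26.4% and 23.6%) and SLC18A2 (26.1% and 10.6% against 18.5% and 6.86%) overlapped.

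Thus 3 genes were higher and 4 lower with GSK-J4, where 11.4% of coding genes were higher and 8.66% lower. The higher genes numbered 1 over gene bodies and 0 with narrow peaks in place of islands, which also turned the difference to -0.336 points for DBH, 0.305 for SLC6A2 and 0.183 for CHGB. Among the 2337 genes with a DMSO mean of at least 20%, 26.2% were higher and 21.1% lower. The DMSO median of those genes was 34.4%, against 46.7% for the 9 genes. The median difference of the 9 genes was -1.24 points, beside 0 over all genes. Changes of direction between the 2 experiments for TH, DBH, PNMT and CHGB were not tested against each other. With GSK-J4 the highest summits were lower for 6 genes in spite of the wider islands of some: TH had 545 and 766 times background in DMSO against 402 and 376 in GSKJ4, and DBH had 545 and 621 against 347 and 393. The others were SLC18A1, SLC18A2 (281 and 269 against 128 and 125), SLC6A2 and CHGA (668 and 848 against 438 and 411). PNMT alone was higher, with 123 and no peak in DMSO against 146 and 125 in GSKJ4, from 7 tags in DMSO and 8 and 7 in GSKJ4. Lower summits were found in 18.9% and higher ones in 14.1% of all coding genes, and in 50.1% (lower) of the 3016 genes averaging at least 200 in DMSO. By number of narrow peaks, CHGA was lower (18 and 17 against 13 and 12), SLC6A2 was higher (11 and 8 against 13 and 12), and the other 7 genes overlapped, beside 7.33% lower and 11.5% higher over all genes.

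H3K27me3 was nearly absent from these genes in siCtrl cells. PNMT was the exception, with an island over its start that covered 16.9% of the window in both siCtrl libraries and 16% and 22.2% in siKDM6B33. The other 8 genes had no H3K27me3 island in siCtrl. DBH had none in siCtrl and 10.2% and 7.91% in siKDM6B33, in an island from at least 2.48 kb before to 0.915 kb after its start that takes in the upstream bases printed above. It was the 1 gene higher in both siKDM6B33 libraries, and none was lower, where 11.1% of coding genes were higher and 3.64% lower. TH (14.3%), SLC18A2 (3.09%) and CHGA (7.47%) each had an island in 1 siKDM6B33 library and none in the other. DDC, SLC18A1, SLC6A2 and CHGB had none in any of the 4 libraries. With the lists trimmed to equal covered length, no gene was higher. Narrow peaks of H3K27me3 numbered 0 to 4 per window in these libraries, too few to compare.

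In the compound experiment, the lists labelled H3K27me3 covered the same genes already in DMSO. TH was covered to 100% and 86.2% in DMSO and to 92.0% and 89.1% in GSKJ4, which overlapped. CHGA had 92.8% and 90.3% against 85.4% and 88.5%, and DDC 20.0% and 16.9% against 16.5% and 15.1%. These were the 2 genes lower in both GSKJ4 libraries. PNMT was the 1 gene higher, with 32.9% and 27.6% in DMSO and 40.9% and 44.5% in GSKJ4, and over the gene body alone or with a 5-kb flank no gene was higher. DBH (50.7% and 59.9% against 56.3% and 44.2%), SLC6A2 (26.5% and 43.5% against 31.0% and 34.3%), SLC18A1 and SLC18A2 overlapped, and CHGB had no island. Over all coding genes 5.96% were higher and 4.5% lower. Of the 2223 genes with a DMSO mean of at least 20%, 199 were higher and 429 lower. CHGA and PNMT belong to that class, and DDC, with a DMSO mean of 18.4%, does not. The exact permutation p was 0.333 for the 3 genes that stood apart and 0.667 or more for the others. By number of H3K27me3 narrow peaks, 3 genes were higher in both GSKJ4 libraries, 0 lower and 6 overlapped, where 17.1% of coding genes were higher and 2.35% lower. GSKJ4 H3K27me3 replicate 1 held 61200 narrow peaks in all, against 29752 to 40590 in the other compound libraries of that mark. DDC held 7 in each DMSO library and 14 and 12 in GSKJ4, DBH 3 and 4 against 9 and 8, and CHGA 1 and 3 against 14 and 6. By highest H3K27me3 summit, DDC (369 and 473 times background against 533 and 566) and CHGB (101 and 59.1 against 118 and 108) were higher, SLC18A2 (168 and 148 against 118 and 53.9) was lower and the other 6 overlapped, where 12% of coding genes were higher and 15.2% lower. The calls for CHGB and SLC18A2 rest on few tags. CHGB had 3 and 2 tags in DMSO against 6 and 4 in GSKJ4, and SLC18A2 had 5 and 5 against 6 and 2. In island coverage, 3 genes were lower and 1 higher without GSKJ4 H3K27me3 replicate 1, which stood apart in its islands. The counts rested more on the controls: 6 were lower and 2 higher without DMSO replicate 1, and 3 were lower and 3 higher without DMSO replicate 2.

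**Figure D4:**
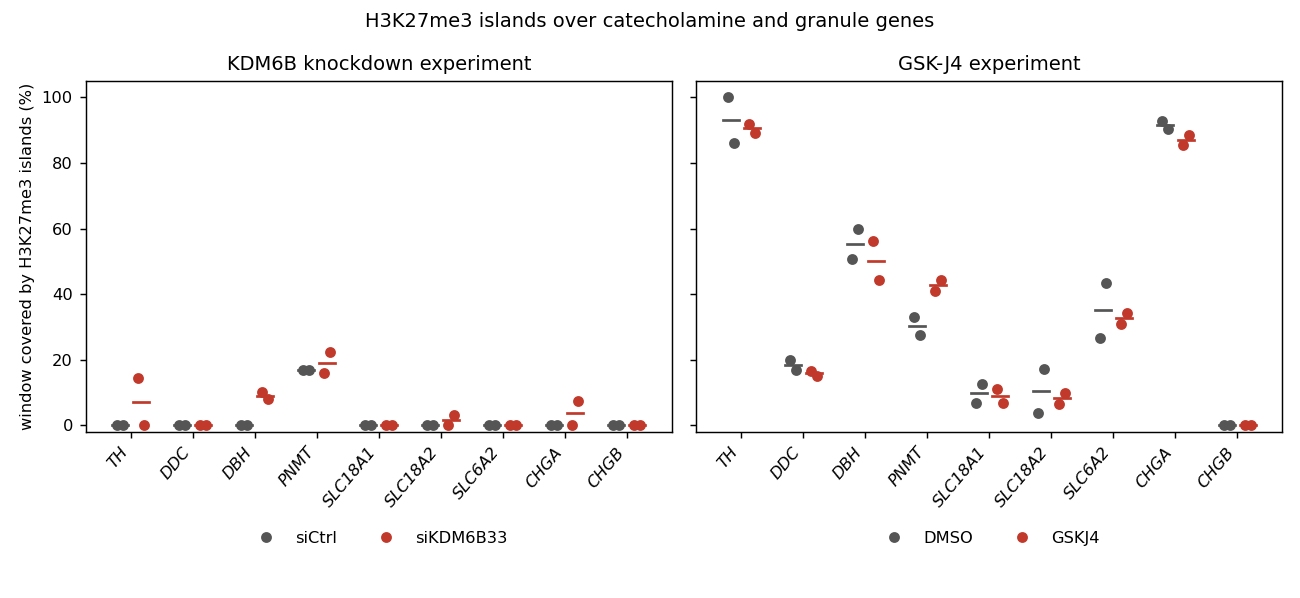
Percent of each window covered by H3K27me3 islands, drawn as for H3K4me1. In the knockdown experiment only DBH is above 0 in both siKDM6B33 libraries with none in siCtrl, whereas in the compound experiment TH and CHGA lie between 85.4% and 100% in DMSO and GSKJ4 alike.

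Where H3K27me3 was called over these genes, most of it lay inside H3K4me1 islands. In the compound experiment the 9 windows held 136 to 155 kb of H3K27me3, of which 89.6% to 95.3% fell inside the H3K4me1 islands of the same-numbered library, beside 50.1% to 66.9% over the genome. These shares are not like for like, since H3K4me1 islands filled 174 to 191 kb of these windows, a far larger part than of the genome. Windows of other genes with similar H3K4me1 coverage were not compared. In the knockdown experiment they held 3.80 kb in each siCtrl library and 12 and 12.6 kb in siKDM6B33, all of it inside H3K4me1 islands. The TH summit described above was shared between the marks, with H3K27me3 heights of 403 and 355 times background in DMSO and 395 and 404 in GSKJ4, which overlapped, and it was not called for H3K27me3 in siCtrl. Between the 2 controls, which differ in reagent, depth and experiment, TH thus had 0% in siCtrl and 86.2% to 100% in DMSO. The part of antibody, depth and treatment in that contrast cannot be told apart.

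At the starts, H3K4me1 islands lay within 1 kb of 8 of the 9 canonical starts in both siCtrl libraries, of 7 and 8 in siKDM6B33, of 7 in each DMSO library and of 6 in each GSKJ4 library. SLC18A2 was the gene without one in siCtrl, DMSO and GSKJ4. DDC had a start island in siCtrl and in no other group, and CHGB had none in GSKJ4. The share of all coding starts with an H3K4me1 island was 24.3% and 24.7% in siCtrl, 57.5% and 57.6% in siKDM6B33, 23.2% and 21.1% in DMSO, and 17.8% and 18.6% in GSKJ4. H3K27me3 islands lay near 1 start (PNMT) in siCtrl, 3 in each siKDM6B33 library, 4 and 5 in DMSO and 6 and 5 in GSKJ4. Over all coding starts the H3K27me3 shares were 16% and 16.1% in siCtrl, 17.4% and 17.3% in siKDM6B33, 14.3% and 14.6% in DMSO, and 21.1% and 14.8% in GSKJ4.

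Genes around the pathway were counted in the same way, and their counts stand beside 48% of all coding genes higher and 10.2% lower in H3K4me1 after knockdown. After knockdown the noradrenergic transcription factors (PHOX2A, HAND2, GATA2, GATA3, TFAP2B and INSM1), known regulators of noradrenergic identity, were higher in 5 of 6 and lower in 0, with a median difference of 13.5 points. HAND2 had 59.4% and 56.5% in siCtrl and 100% in both siKDM6B33 libraries. GATA3 had 62.2% and 55.0% against 79.9% and 84.0%. Other granule proteins (SCG2, SCG3, SCG5, VGF, PCSK1, PCSK2, CPE and CYB561) were higher in 4 of 8 and lower in 1, near that background. Enzymes of the tetrahydrobiopterin cofactor, on which TH depends (GCH1, PTS, SPR, QDPR and PCBD1), were higher in 2 of 5 and lower in 1, and those of catecholamine breakdown (MAOA and MAOB) higher in 1 of 2 and lower in 0. Markers of serotonin, dopamine and cholinergic neurons (TPH1, TPH2, SLC6A4, SLC6A3, CHAT, SLC18A3 and SLC5A7) were higher in 0 of 7 and lower in 3, from a median of 0% in siCtrl. SLC18A3, the vesicular acetylcholine transporter gene, had 95.5% and 96.4% in siCtrl and 76.6% and 75.7% in siKDM6B33. Mesenchymal and Schwann cell markers (PRRX1, FN1, VIM, SNAI2, SOX10 and S100B), which stand for other cell states a neuroblastoma line can hold, were higher in 2 of 6 and lower in 0, and 2 had no island in any of the 4 libraries.

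**Figure D5:**
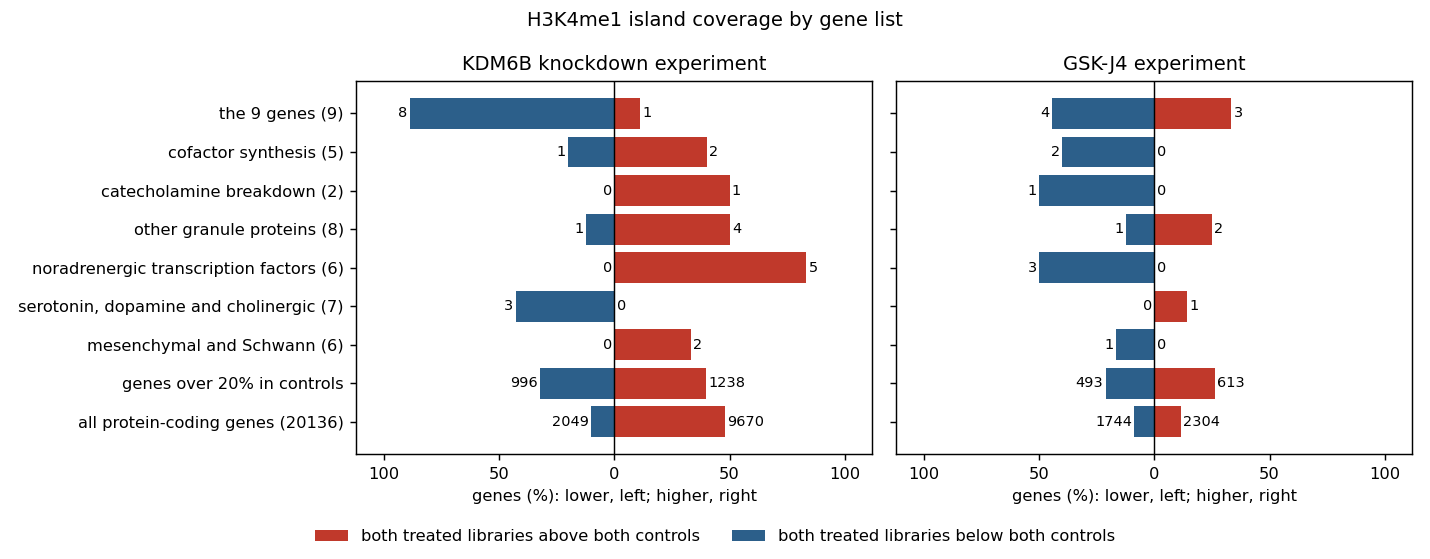
Percent of the genes of each list whose 2 treated libraries both lay below (left bars) or both above (right bars) both controls in H3K4me1 island coverage, with the number of genes beside each bar and the list size in brackets. After knockdown 8 of the 9 genes are lower, while 5 of 6 noradrenergic transcription factors are higher.

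With GSK-J4, where 11.4% of coding genes were higher and 8.66% lower, the noradrenergic transcription factors were higher in 0 of 6 and lower in 3. Each of these factors had a DMSO mean of at least 20%, and of all coding genes with such a mean 26.2% were higher and 21.1% lower. INSM1 had 34.1% and 16.6% H3K4me1 coverage in DMSO and none in GSKJ4, HAND2 34.0% and 51.0% against 21.4% and 32.5%, and GATA3 30.1% and 28.5% against 15.3% and 14.1%. Cofactor enzymes were lower in 2 of 5 and higher in 0, breakdown enzymes lower in 1 of 2 and higher in 0, other granule proteins higher in 2 of 8 and lower in 1, serotonin, dopamine and cholinergic markers higher in 1 of 7 and lower in 0, and mesenchymal and Schwann markers lower in 1 of 6 and higher in 0. In H3K27me3, 11.1% of coding genes were higher and 3.64% lower after knockdown, and 5.96% and 4.5% with GSK-J4. After knockdown SLC6A3, the dopamine transporter gene, went from 50.5% and 50.2% to 76.9% and 65.9%, PRRX1 from 18.2% and 16.1% to 22.3% and 33.7%, and PCSK2 from 13.4% and 14.9% to 25.7% and 22.9%. With GSK-J4 PCBD1 had 0% in DMSO and 9.89% and 22.8% in GSKJ4, SLC18A3 had 76.6% and 78.4% against 71.4% and 67.9%, and VGF 67.6% and 66.8% against 62.4% and 56.6%. Counts of higher and lower genes in H3K27me3 after knockdown were 0 and 1 of 5 cofactor enzymes, 0 and 0 of 2 breakdown enzymes, 1 and 2 of 8 granule proteins, 1 and 0 of 6 transcription factors, 2 and 2 of 7 other transmitter markers and 1 and 0 of 6 mesenchymal and Schwann markers. With GSK-J4 they were 1 and 0, 0 and 0, 0 and 1, 1 and 0, 0 and 1, and 1 and 0, in the same order.

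Likeness to TH and DBH was measured as the mean absolute difference in island coverage over the 16 libraries, among genes more than 1 Mb away. CYB561, which encodes the granule membrane cytochrome that feeds electrons to DBH, was the nearest to TH at 6.84 points, and KCNH2, a potassium channel gene, was next at 7.65 points. CYB561 had mean H3K4me1 coverage of 96.0% in siCtrl but 93.0% in siKDM6B33, where TH had 61.8%. The nearest to DBH were PEAR1 at 5.33 points and CDC42EP4 at 5.49 points. CYB561 is also 1 of the granule proteins counted above.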

How the data were processed

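CUT&Tag region lists of 16 libraries (8 groups of 2) were used. Per the labels and methods, the authors aligned reads to hg19 with BWA 0.7.12, removed duplicates with Picard 1.65, kept fragments of 150 to 2000 bp, and called islands with SICER 1.1 (200-bp windows, 600-bp gaps) and narrow peaks with MACS2 (q of 0.05) in each library alone. The deposited island lists give a caller's score, which grows with depth. The deposited narrow peak lists give a fold enrichment (ratio), −log10 p and −log10 q. The authors scaled libraries by E. coli reads and tested counts; the lists used here hold no reads, so neither was repeated, and depth was read from the summit tags that fold and −log10 p fix together. The deposited island scores only ranked islands in 1 alternative.

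The percent of each window (gene body and 10 kb) covered by islands, the narrow peaks centred in the window and the highest summit over genome background were computed in Python 3.11.15 (NumPy 2.4.6; pandas 2.3.3; SciPy 1.17.1). GRCh37 and GENCODE 44 mapped to it gave genes, starts and sequence. A gene stood apart when both treated libraries lay above or below both controls, and the test of group means was an exact permutation test, two-sided. The genes named were all 9 members, the 3 list genes with the largest difference per comparison among those that stood apart, and the 2 genes most like TH and DBH. The members and lists were chosen with earlier results of these data known, and the summit height and shared summit measures after the data were seen. Some genes of the lists and the bases around 1 member are not reported here. Coverage, calls and summit recovery were tested on simulated data. The study calls the libraries of a group biological replicates without saying how their cultures were separated, and p-values measure only the spread between these libraries. Same-numbered libraries shared a number only, with correlations of their deviations of -0.0579 to 0.0820 over genes. Alternatives were flanks of 5 kb or none, islands of at least 2 kb, equal covered length, narrow peaks, each library left out and the replicate block.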

Additional observations from a re-analysis of the deposited data

Results flagged for a closer look

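For 4 genes, H3K4me1 coverage moved in opposite directions in the knockdown and the compound experiment, in both libraries of each treated group against both controls. TH differed by -34.2 percentage points after KDM6B knockdown and by 2.51 points after GSK-J4. DBH differed by -24.9 points and 9.60 points. PNMT differed by -15.1 points and 18.2 points. CHGB went the other way, with 2.66 points after knockdown and -3.84 points after GSK-J4. The difference between the experiments was not tested for any of them, since each has its own controls and depth. The values for PNMT after knockdown and TH after GSK-J4 changed sign with a 5-kb flank. Over the gene body alone the TH difference was 0 points in both experiments, and that of PNMT was 14.6 points after knockdown and 0 after GSK-J4. Islands spanned the whole TH body in every H3K4me1 library, so coverage could not differ there.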

How the results depend on the processing

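The count of 8 genes with less H3K4me1 after KDM6B knockdown was 5 over gene bodies alone and 6 to 8 under every other alternative run, and leaving out any 1 library left it at 8. The single gene with more H3K4me1, CHGB, was not counted with islands of at least 2 kb or by highest summit (0 genes each). After GSK-J4 the 3 genes with more H3K4me1 became 1 over gene bodies, 0 with narrow peaks in place of islands, and 1 by number of narrow peaks and by highest summit, and the 4 with less became 1 by number of narrow peaks; the summit and peak number measures were chosen after seeing the data. For H3K27me3 after knockdown, the 1 higher gene (DBH) became 0 and the 0 lower genes 1 at equal covered length. Narrow peaks in place of islands gave 3 higher genes, from few peaks, and DBH was not among them. For H3K27me3 after GSK-J4, the 1 higher gene became 0 with a 5-kb flank or the gene body and 4 with narrow peaks, which also gave 0 lower genes. Leaving out 1 library gave 1 to 4 higher and 0 to 1 lower H3K27me3 genes after knockdown (4 without siKDM6B33 replicate 1, and 2 when its partner was left out), and 1 to 3 higher and 2 to 6 lower after GSK-J4 (6 lower without DMSO replicate 1). A single remaining library separates from 2 others more easily, so these counts grow by construction.

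For genes that stood apart, the coverage difference changed sign for PNMT H3K4me1 after knockdown (6.69 points with a 5-kb flank and 14.6 over the gene body) and for TH H3K4me1 after GSK-J4 (-2.24 with a 5-kb flank). With narrow peaks in place of islands it changed sign after GSK-J4 for H3K4me1 at DBH (-0.336), SLC6A2 (0.305) and CHGB (0.183) and for H3K27me3 at DDC (0.417), PNMT (-0.0778) and CHGA (1.28); the cause was not tested. Of the 1066 narrow peaks of the 9 genes, 559 had a −log10 q of at least 5, and 85 calls at starts became 86 within 2 kb.

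The replicate block, in which same-numbered libraries were paired, kept 8 lower and 1 higher H3K4me1 genes after knockdown. It gave 5 lower and 4 higher after GSK-J4, and for H3K27me3 0 and 1 after knockdown and 2 and 1 after GSK-J4, with an exact p of at least 0.5 in 2 pairs. With 2 libraries a group and summits of few tags, small differences in coverage were not detectable.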
